A study of Mus musculus with 6 samples.

Results

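Protein kinase A is the main kinase that cyclic AMP switches on, and the CREB factors are transcription factors that it controls. The expression of 10 genes of this pathway, out of 18194 genes measured, was compared in mouse cumulus cells after and before human chorionic gonadotropin (hCG), the hormone given to set off ovulation. The 10 genes were chosen for their function: the catalytic subunits Prkaca and Prkacb, the regulatory subunits Prkar1a, Prkar2a and Prkar2b, the kinase inhibitors Pkia and Pkib, the CREB-type factors Crem and Creb1, and the coactivator Crtc2. Earlier results of these data were known when the 10 genes were chosen. All 10 were measured, by 31 of the 34958 probe sets that name a single gene, and none of their probe sets names several genes. A probe set is the group of short array probes that reports on a transcript.

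The samples were cumulus cells, the somatic cells around the oocyte, of wild-type female mice. The mice were given 5 IU of equine chorionic gonadotropin (eCG) at 21 days of age to make follicles grow, for 46 h. Those of the hCG-6h group then received 5 IU of hCG for 6 h, and those of the hCG-0h group received none. Each group held 3 samples of cumulus cells from 50 cumulus-oocyte complexes each, and milrinone, a PDE3 inhibitor that holds oocytes immature, was in the medium in which the cells of both groups were handled. The titles of all hCG-6h samples give 6 h, but the descriptions of samples 2 and 3 give 7 h and 8 h. The labels do not say whether samples came from separate animals, so p-values measure the spread between these samples only. No mice were kept for the added hours without hCG, and the effects of hormone and time cannot be told apart.

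Without cyclic AMP, a pair of regulatory subunits holds a pair of catalytic subunits silent. Cyclic AMP binds the regulatory subunits and frees the catalytic ones, which phosphorylate many proteins, CREB1 among them. Phosphorylated CREB1 sits on the cyclic AMP response element of target genes, where CRTC coactivators join it, and the Crem gene gives rise to activators as well as to ICER, an inducible short repressor that ends the response. In the follicle, follicle-stimulating and luteinizing hormone both signal through receptors that raise cyclic AMP.

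Values are log2 RMA values of 1-colour arrays, and a change is the hCG-6h mean minus the hCG-0h mean on that scale. Depth is limited by the number of arrays. For each gene the probe set with the highest mean over the 6 arrays stood for the gene, and the other probe sets were tested on their own. Limma, fitted across all 18194 genes, called a gene changed at an adjusted p under 0.05. Levels of different probe sets are not comparable, since each binds its target with its own strength. In these bulk samples, fewer cells of a type and less RNA per cell cannot be told apart.

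After hCG, 1 of the 10 genes was higher and 2 were lower. Crem was 8.82-fold higher, the regulatory subunit gene Prkar2b was 1.62-fold lower and the catalytic subunit gene Prkacb was 1.53-fold lower. The other 7 did not pass the test. Of all genes tested, 21.3% were called, 10.8% higher and 10.5% lower, so 3 of 10 is near the background and says nothing about the group as such. The values of both groups did not overlap in 5 of the 10 genes, against 37.9% of all genes. The median change of the 10 genes was 0.10, beside 0.0067 over all genes. Among the 31 probe sets, 3 were called higher and 4 lower, against 9.28% and 9.43% of all single-symbol probe sets, or 18.7% in either direction. The groups did not overlap in 10 of the 31, against 36.3% of all probe sets.

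**Figure D1:**
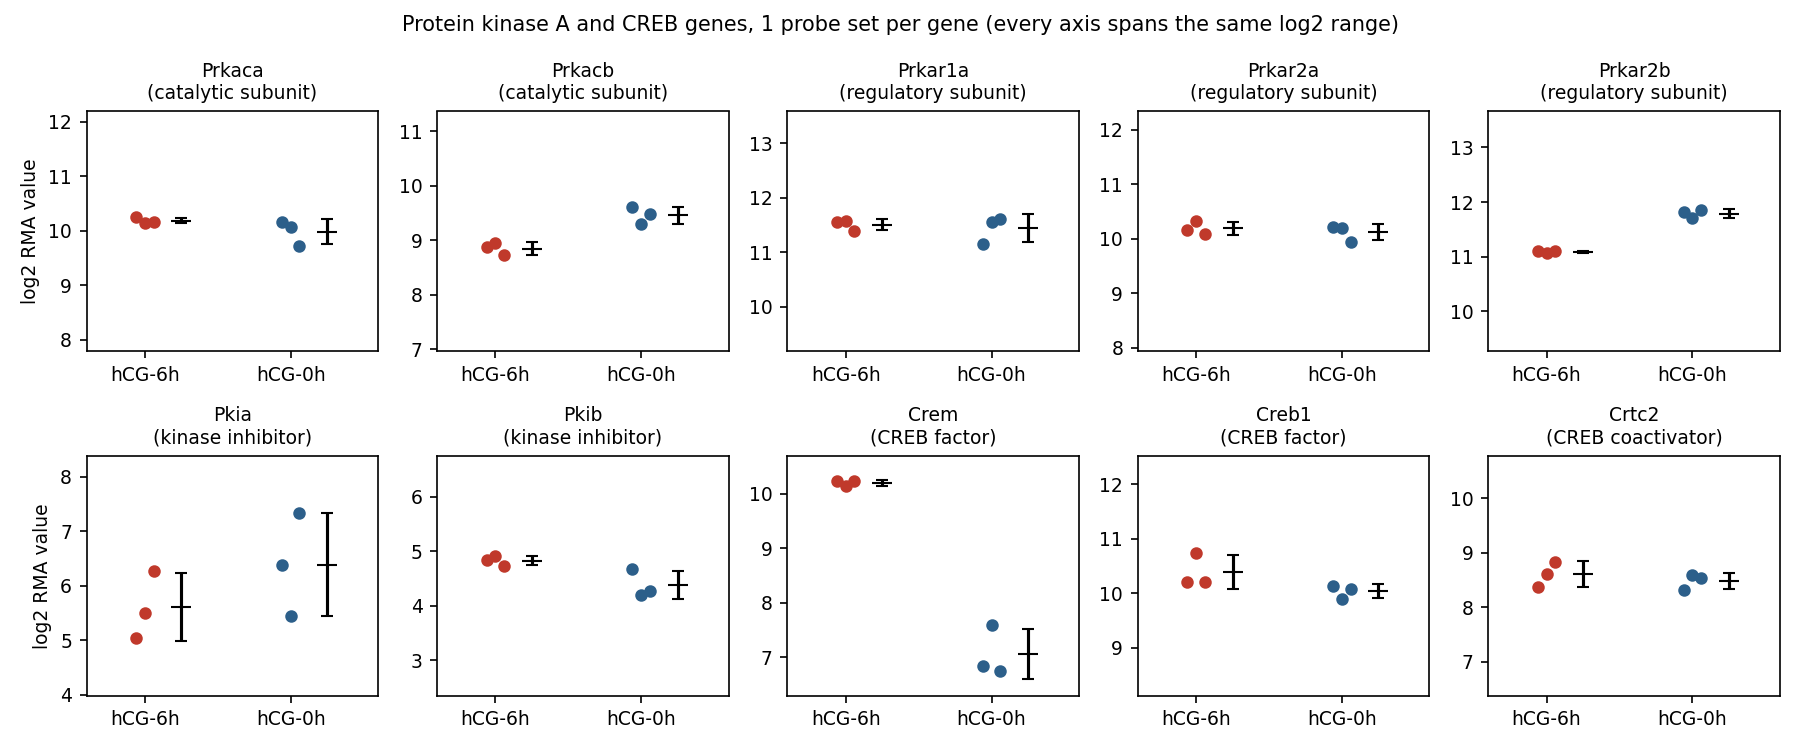
Log2 RMA values of the 10 genes, with a panel for each gene, 1 point per sample, hCG-6h in red and hCG-0h in blue, and the mean and SD in black (n = 3 each). Every vertical axis covers the same span of log2 units, and the gap between groups is widest for Crem, where the lowest hCG-6h value is 10.14 and the highest hCG-0h value 7.59.

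Crem, the gene of the cyclic AMP response element modulator, showed the largest change of the 10. Probe set 1449037_at stood at 10.24, 10.14 and 10.24 in the hCG-6h samples, against 6.85, 7.59 and 6.76 in the hCG-0h samples. The hCG-6h samples lay close together and far above the hCG-0h samples, of which sample 2 was highest. The change was 3.14 ± 0.22 (limma estimate and SE, adjusted p = 0.000187), the rank 113 among the rises of 18194 genes. A second probe set, 1418322_at, gave 9.47, 9.48 and 9.27 at hCG-6h, against 6.85, 6.24 and 6.37 at hCG-0h. Its change of 2.92 ± 0.18 was called as well (limma, adjusted p = 0.000169 over 34958 probe sets).

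The other 2 probe sets of Crem were dim, with a mean under 6.08 over the 6 arrays (1 in 3 genes lay under this level). RMA background correction can shrink changes at such levels, but whether it did so here was not tested. Probe set 1430847_a_at gave 5.59, 6.15 and 6.34 at hCG-6h, against 5.33, 5.49 and 5.20 at hCG-0h, so the groups did not overlap but the change of 0.69 ± 0.21 missed the threshold (limma, adjusted p = 0.0678). Without hCG-6h sample 1 it passed, with a change of 0.91 (limma, adjusted p = 0.0155). Probe set 1430598_at ranged from 4.72 to 5.65 at hCG-6h and from 4.10 to 5.00 at hCG-0h, and its change of 0.39 had a 95% confidence interval from -0.41 to 1.19. When the 4 probe sets were averaged, the change of Crem was 1.78 in place of 3.14 and was still called (limma, adjusted p = 6.75e-05). Which Crem transcripts each probe set detects, ICER among them, was not analysed here.

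The profile of Crem over the 6 samples was most like those of Wwc1, Oasl2 and Tmsb4x. Likeness was measured as the Euclidean distance between log2 values, each gene centred on its own mean over the 6 samples, and 0 would be an identical profile. Wwc1, which encodes the scaffold protein KIBRA, stood at a distance of 0.325, with 11.10, 11.12 and 10.95 at hCG-6h, against 7.96, 8.42 and 7.78 at hCG-0h. Oasl2, an interferon-inducible gene, and Tmsb4x, which encodes the actin-binding peptide thymosin beta-4, stood at 0.436 and 0.439. These genes were picked for likeness to probe set 1449037_at, in which hCG-0h sample 2 was highest of its group, whereas it was lowest in 1418322_at.

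Creb1, the constitutive CREB factor, had 6 probe sets, and limma called none of them. Its probe set with the highest mean, 1423402_at, gave 10.21, 10.74 and 10.20 at hCG-6h, against 10.14, 9.90 and 10.07 at hCG-0h. The groups were just apart, with sample 2 of hCG-6h highest, and the change of 0.35 had a 95% confidence interval from -0.06 to 0.76 (limma, adjusted p = 0.221). The probe sets did not lean one way, with changes between -0.21 for 1421582_a_at and 0.35 for 1423402_at, and their average changed by 0.03. One of the 6, 1421583_at, lay near the floor of the arrays, between 2.57 and 2.88 in all 6 samples.

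Crtc2, the coactivator that moves to the nucleus and joins CREB1 when cyclic AMP rises, was not called by either of its 2 probe sets. Probe set 1429373_x_at stood at 8.37, 8.62 and 8.84 in the hCG-6h samples, against 8.32, 8.60 and 8.53 in the hCG-0h samples. The groups overlapped, and the change of 0.13 had a 95% confidence interval from -0.23 to 0.49, which leaves out a rise of 2-fold. Probe set 1424660_s_at changed by 0.13 as well, with an interval from -0.32 to 0.58.

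**Figure D2:**
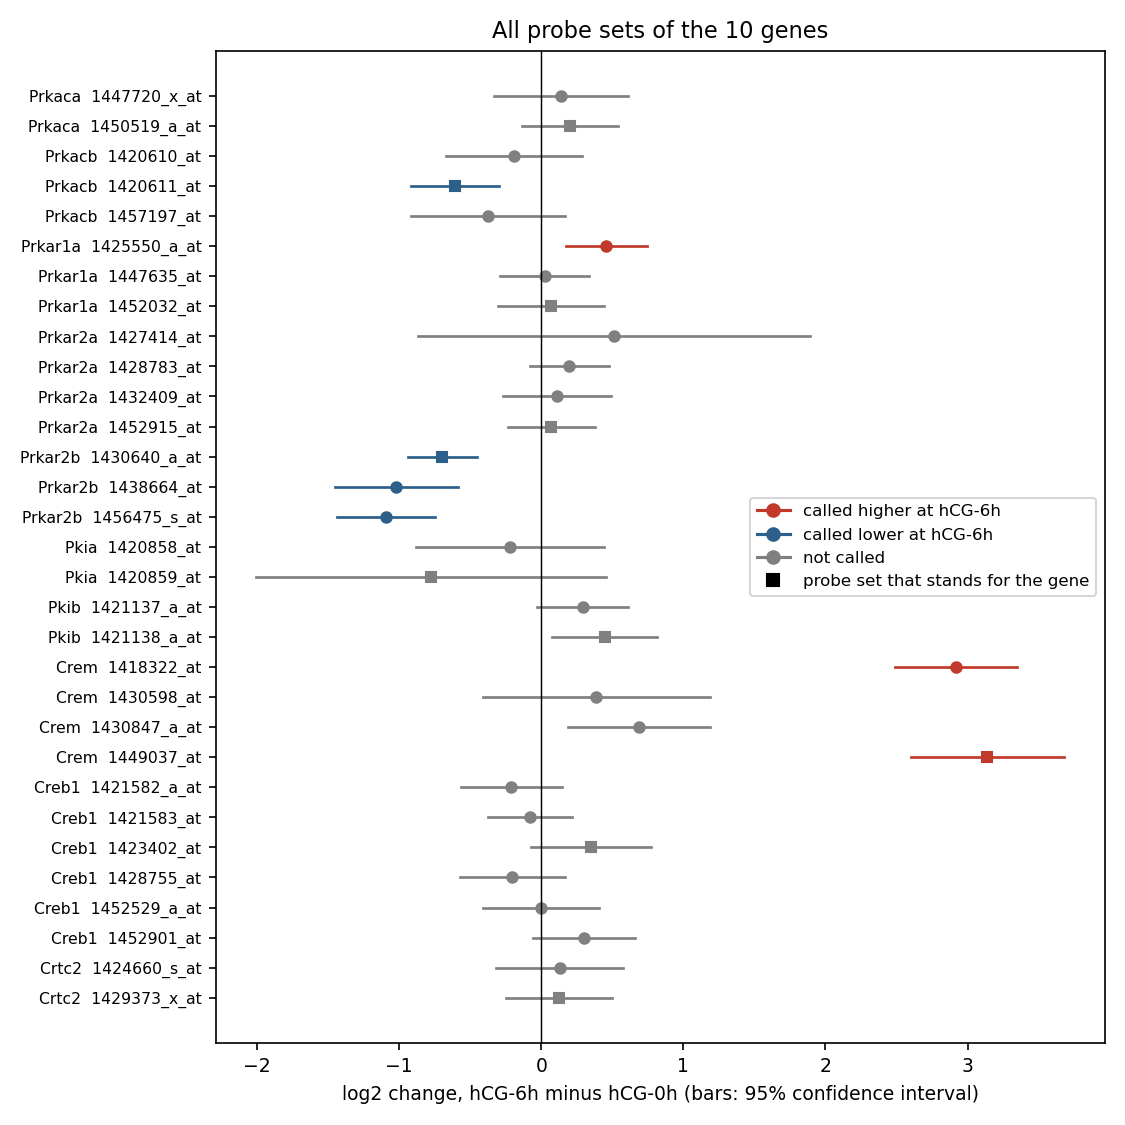
Change of each of the 31 probe sets (hCG-6h minus hCG-0h, log2), grouped by gene, with limma's 95% confidence interval as a bar, and a square for the probe set that stands for its gene. Red marks the 3 called higher (2 of Crem and 1 of Prkar1a), blue the 4 called lower (3 of Prkar2b and 1 of Prkacb), and grey the other 24.

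Promoter sequences from RefSeq (mouse build GRCm38.p6), from 250 bases before to 50 after a transcript start, were at hand for 7 of the 10 genes, and Crem, Crtc2 and Pkia had no entry. They are shown for those of the 7 with a called probe set, since the cyclic AMP response element bound by CREB1 and CREM can lie there. Both strands were searched for the full element TGACGTCA, which reads the same on both strands, and for its shorter form TGACG, or CGTCA on the other strand, which the full element holds on each strand. The full element was found in 1.79% of all 32851 such windows and the shorter form in 20.8%, and in at least 1 window of 2.03% and 23.0% of 27025 genes. Of the 7 genes, Prkar1a alone held the full element, in 2 overlapping windows out of 6, and the shorter form was in windows of Prkacb, Prkaca and Prkar2a as well. A gene with more windows has more chances of a match. Capitals mark the full element in Prkar1a and the shorter form in Prkacb. The Prkar1a window shown also holds the shorter form at another place, left in lower case. Of the 3 windows of Prkacb, only the 1 shown held the shorter form. Prkar2b had 2 windows, 1 of them shown, and no match in either.
Prkar1a, chr11:109650699-109650998, plus strand: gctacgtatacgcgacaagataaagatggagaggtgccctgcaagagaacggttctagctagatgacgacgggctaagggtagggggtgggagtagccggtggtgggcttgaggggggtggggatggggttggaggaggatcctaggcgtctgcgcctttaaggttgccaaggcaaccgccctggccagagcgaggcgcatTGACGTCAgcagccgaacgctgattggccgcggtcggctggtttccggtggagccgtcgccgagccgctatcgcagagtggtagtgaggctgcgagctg
Prkar2b, chr12:32061228-32061527, minus strand: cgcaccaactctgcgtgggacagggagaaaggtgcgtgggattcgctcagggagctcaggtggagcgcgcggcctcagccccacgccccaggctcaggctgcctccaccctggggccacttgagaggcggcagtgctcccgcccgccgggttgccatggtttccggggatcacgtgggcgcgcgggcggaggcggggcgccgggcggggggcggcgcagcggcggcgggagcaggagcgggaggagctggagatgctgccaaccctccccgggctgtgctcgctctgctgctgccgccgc
Prkacb, chr3:146812897-146813196, minus strand: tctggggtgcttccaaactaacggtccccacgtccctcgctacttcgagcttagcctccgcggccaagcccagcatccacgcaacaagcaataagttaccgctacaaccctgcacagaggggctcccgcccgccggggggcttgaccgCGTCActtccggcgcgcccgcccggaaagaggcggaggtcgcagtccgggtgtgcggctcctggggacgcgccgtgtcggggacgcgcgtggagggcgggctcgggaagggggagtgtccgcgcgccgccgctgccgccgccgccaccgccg
A match of letters is a description only and does not show that a factor binds there.

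Among the regulatory subunits, Prkar2b, the type II beta subunit, was lower at hCG-6h in all 3 of its probe sets. Probe set 1430640_a_at gave 11.10, 11.07 and 11.10 in the hCG-6h samples, against 11.81, 11.70 and 11.85 in the hCG-0h samples. The hCG-6h samples differed by at most a few hundredths and lay below every hCG-0h sample, and the change of -0.70 ± 0.10 passed (limma, adjusted p = 0.00296). Probe set 1456475_s_at gave 9.68, 9.94 and 10.07, against 10.85, 11.00 and 11.12, a change of -1.09 ± 0.14 (limma, adjusted p = 0.00309 over probe sets). Probe set 1438664_at gave 9.12, 9.33 and 9.74 at hCG-6h, against 10.25, 10.49 and 10.51 at hCG-0h, a change of -1.02 ± 0.18 (limma, adjusted p = 0.0104 over probe sets). By these last probe sets the level at hCG-6h was 2.13-fold and 2.03-fold lower, a larger fall than the 1.62-fold of the probe set that stood for the gene. Within each array, 1456475_s_at minus 1430640_a_at averaged -1.19 at hCG-6h and -0.80 at hCG-0h, and whether the probe sets differ in their change could not be settled with 3 against 3 samples (p = 0.10 by a two-sided exact permutation test, the smallest it allows, and 0.40 adjusted over the 4 genes compared in this way). With hCG-6h sample 1 as the only hCG-6h sample, the change by 1430640_a_at was -0.69 and missed the threshold (limma, adjusted p = 0.0775), while 1456475_s_at and 1438664_at passed (limma, adjusted p = 0.0325 and 0.0346).

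The nearest profiles to Prkar2b were those of Cox7a2l, Mid1ip1 and R3hdm1, at distances of 0.0754, 0.0812 and 0.0877. Cox7a2l, which encodes a factor for the assembly of respiratory supercomplexes, stood at 11.70, 11.69 and 11.68 in the hCG-6h samples, against 12.40, 12.28 and 12.37 in the hCG-0h samples. A small change is matched by many genes, and these distances only say that the 3 genes fell by a like amount, with changes from -0.69 to -0.66.

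Prkar1a, the type I alpha subunit whose promoter window holds the full element, gave different readings by probe set. Probe set 1425550_a_at stood at 11.76, 11.45 and 11.58 in the hCG-6h samples, against 11.13, 11.18 and 11.11 in the hCG-0h samples. All hCG-6h samples were higher, and the change of 0.46 ± 0.12, or 1.37-fold, passed by a small margin (limma, adjusted p = 0.0411 over probe sets). Probe set 1452032_at, with the higher mean, stood at 11.56, 11.58 and 11.39 at hCG-6h, against 11.15, 11.56 and 11.62 at hCG-0h. Here the groups overlapped, with hCG-0h sample 1 lowest, and the change of 0.07 had a 95% confidence interval from -0.29 to 0.43 (limma, adjusted p = 0.814). The third probe set, 1447635_at, was near background, between 3.78 and 4.06 in all samples. The call of 1425550_a_at was lost when any 1 of the 6 samples was left out, with changes from 0.38 to 0.53 (limma, adjusted p from 0.0508 to 0.113), and with the sample number as a block, with a change of 0.46 (limma, adjusted p = 0.0948). Within each array, 1425550_a_at minus 1452032_at averaged 0.09 at hCG-6h and -0.30 at hCG-0h, and the same test, which cannot go below 0.10 here, gave p = 0.20 (exact, two-sided, 0.40 adjusted over the 4 genes) and settles nothing about a difference between them.

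Prkar2a, the type II alpha subunit, was not called by any of its 4 probe sets. Probe set 1452915_at gave 10.17, 10.32 and 10.09 in the hCG-6h samples, against 10.22, 10.20 and 9.95 in the hCG-0h samples. The groups overlapped, and the change of 0.07 had a 95% confidence interval from -0.22 to 0.36. Probe set 1427414_at was erratic, at 9.04, 8.03 and 7.12 against 7.06, 7.08 and 8.52, and its interval from -0.87 to 1.89 excludes little.

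Of the catalytic subunits, Prkacb, which encodes the beta form, was lower at hCG-6h by the probe set with its highest mean. Probe set 1420611_at gave 8.87, 8.95 and 8.72 in the hCG-6h samples, against 9.60, 9.29 and 9.48 in the hCG-0h samples. No values overlapped, and the change of -0.61 ± 0.12 passed (limma, adjusted p = 0.0148). Probe set 1420610_at, however, stood at 9.05, 8.62 and 9.32, against 9.11, 9.07 and 9.39, with the groups overlapping and a change of -0.19 (95% confidence interval from -0.67 to 0.29). The dim probe set 1457197_at changed by -0.37, with an interval from -0.91 to 0.17. The call was lost when the 3 probe sets were averaged (change -0.39, limma, adjusted p = 0.071), without hCG-6h sample 3 (adjusted p = 0.0516), and with hCG-6h sample 1 as the only hCG-6h sample (adjusted p = 0.155). In the fit over probe sets, 1420611_at passed (limma, adjusted p = 0.020) but lost its call when sample 1 or sample 3 of either group was left out (adjusted p from 0.0529 to 0.067, changes from -0.62 to -0.54) and with the sample number as a block (adjusted p = 0.0582).

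Prkaca, the gene of the alpha form, was not called. Probe set 1450519_a_at gave 10.25, 10.15 and 10.17 in the hCG-6h samples, against 10.16, 10.07 and 9.73 in the hCG-0h samples. Only hCG-0h sample 3 lay clearly lower, and the change of 0.20 had a 95% confidence interval from -0.12 to 0.53 (limma, adjusted p = 0.364). Probe set 1447720_x_at changed by 0.14, with an interval from -0.33 to 0.61.

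**Figure D3:**
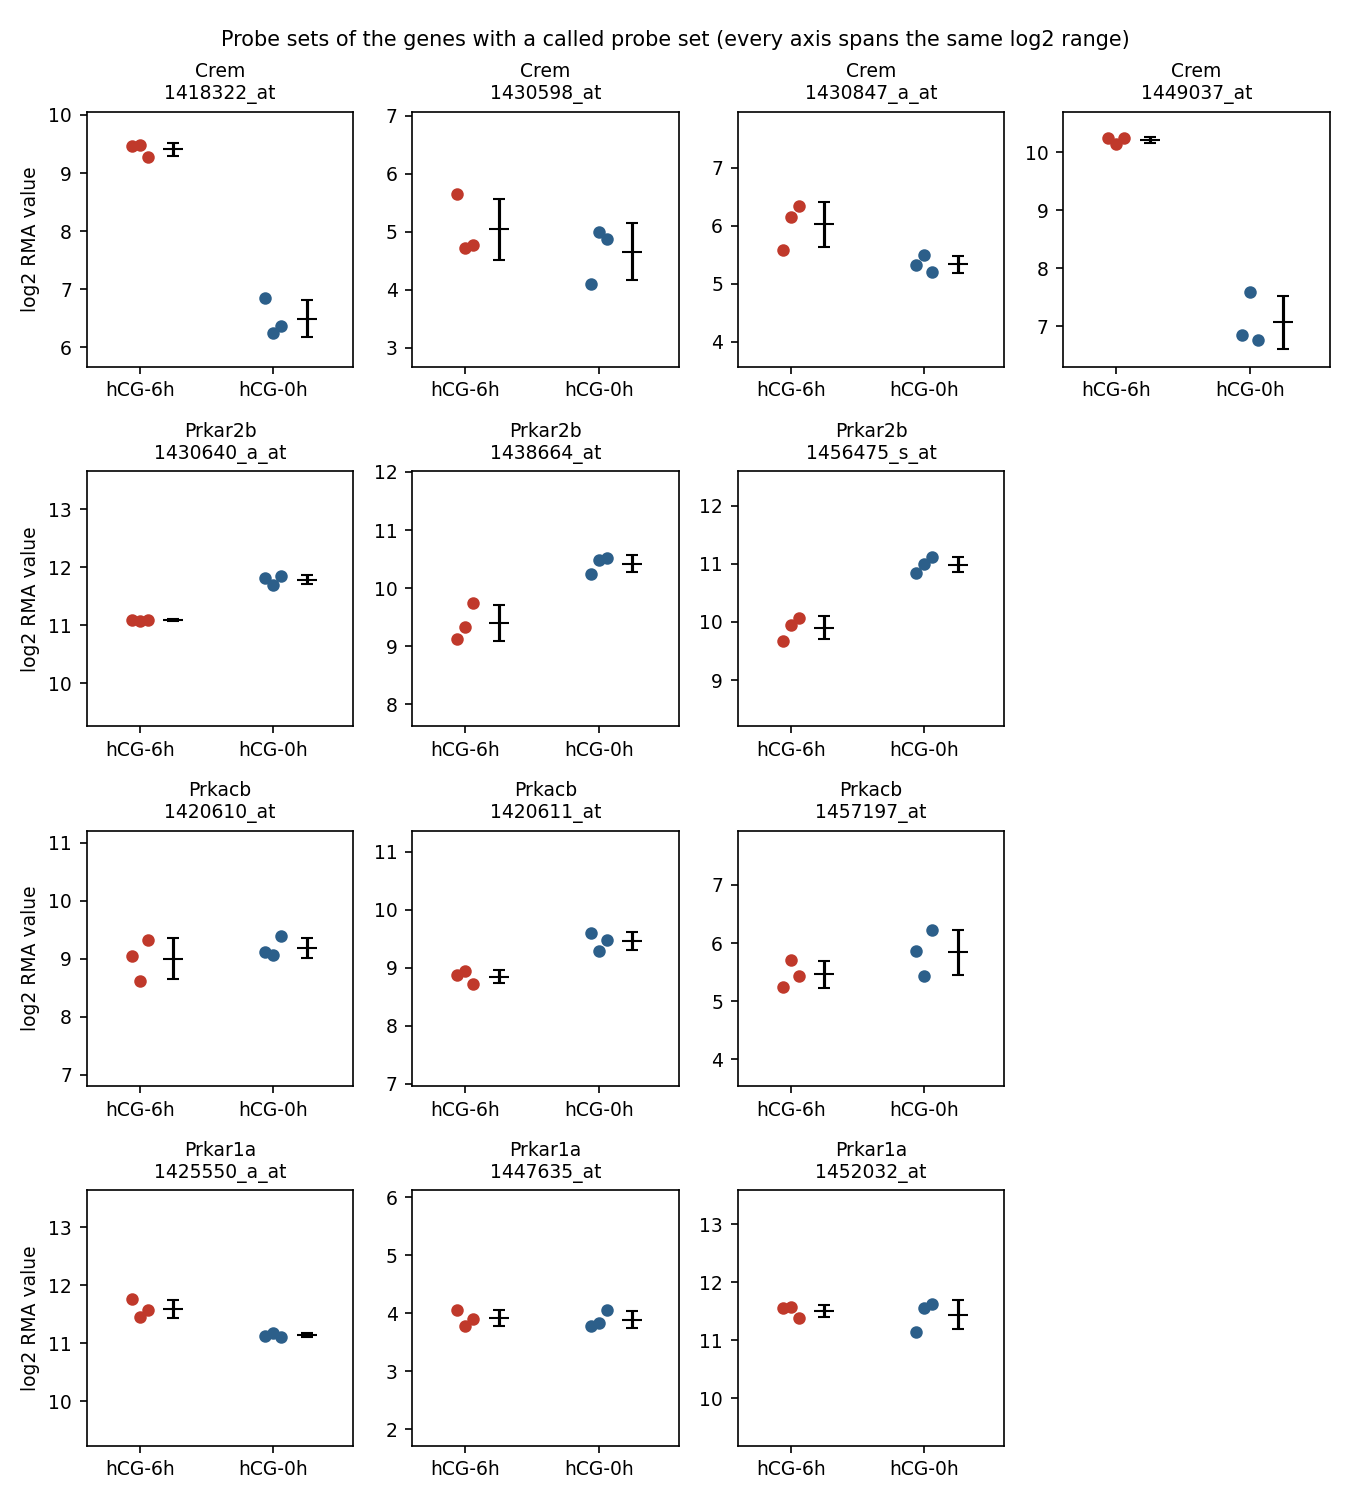
Log2 RMA values by sample for all probe sets of Crem, Prkar2b, Prkacb and Prkar1a, hCG-6h in red and hCG-0h in blue, with the mean and SD in black (n = 3 each) and the same span of log2 units on every vertical axis. The number of probe sets that passed the test was 3 of 3 for Prkar2b, 2 of 4 for Crem, 1 of 3 for Prkacb and 1 of 3 for Prkar1a.

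The kinase inhibitor genes Pkia and Pkib, whose peptides block the free catalytic subunit, were dim and were not called. Pkia stood at 5.04, 5.51 and 6.28 in the hCG-6h samples, against 6.38, 5.45 and 7.33 in the hCG-0h samples by probe set 1420859_at. The groups overlapped widely, and the change of -0.78 had a 95% confidence interval from -1.99 to 0.44 (limma, adjusted p = 0.354). Pkib stood at 4.85, 4.91 and 4.74 at hCG-6h, against 4.68, 4.20 and 4.28 at hCG-0h by probe set 1421138_a_at. Every hCG-6h sample was higher, but the change of 0.45 ± 0.15 missed the threshold (limma, adjusted p = 0.0827). It passed without hCG-0h sample 1 (adjusted p = 0.0195) and with array weights (adjusted p = 0.0406). Both inhibitors lay among the dimmest 1 in 3 genes, where changes can be compressed.

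Other genes of the pathway were read from lists of related genes. Among 4 further kinase genes and cyclic AMP effectors, 1 was higher and 1 lower, against 10.8% and 10.5% of all genes. Prkar1b, the type I beta regulatory subunit, stood at 9.30, 9.34 and 9.30 in the hCG-6h samples, against 7.90, 6.86 and 8.00 in the hCG-0h samples, a rise of 3.31-fold (change 1.73 ± 0.29, limma, adjusted p = 0.00726), and all 5 of its probe sets were called higher. Pkig, the third kinase inhibitor gene, stood at 10.48, 10.42 and 10.29, against 11.36, 11.23 and 11.54, a level 1.97-fold lower at hCG-6h (change -0.98 ± 0.12, adjusted p = 0.00184), in both of its probe sets. Prkx and Rapgef3 were not called. With hCG-6h sample 1 as the only hCG-6h sample, neither passed (adjusted p = 0.125 for Prkar1b and 0.0626 for Pkig).

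Of 18 A-kinase anchoring proteins, which hold the kinase at set places in the cell, 1 was higher and 2 were lower, or 3 called of 18, which is no more than the 21.3% of all genes, and the median change was -0.05. Akap2 rose 2.56-fold, with 11.97, 11.93 and 11.97 in the hCG-6h samples, against 10.70, 10.57 and 10.53 in the hCG-0h samples (limma, adjusted p = 0.000194). Akap7, whose products anchor the kinase at membranes, was 2.32-fold lower at hCG-6h, with 6.22, 6.59 and 6.70, against 7.72, 7.71 and 7.72 (limma, adjusted p = 0.00154). Its other probe set changed by 0.05, and the average of both fell by 0.58. Akap8l fell by 0.50 (limma, adjusted p = 0.0388), a call held in 6 of 14 alternative settings and lost in the others, the block on sample number included (adjusted p = 0.075).

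Among 9 partners and regulators of CREB and CRTC, 1 was higher and 4 were lower, against 10.8% and 10.5% of all genes, and the median change was -0.36. The salt-inducible kinases, which phosphorylate CRTC proteins and keep them out of the nucleus, went both ways. Sik1 stood at 11.26, 11.26 and 11.07 in the hCG-6h samples, against 10.46, 10.45 and 9.58 in the hCG-0h samples, a rise of 2.05-fold (limma, adjusted p = 0.0266), whereas Sik2 and Sik3 were 2.42-fold and 1.75-fold lower (limma, adjusted p = 0.00171 and 0.00202). Atf2, a factor of the CREB and ATF family, was 1.77-fold lower (limma, adjusted p = 0.00326). By probe set, calls in the direction of the gene were made in 2 of 2 for Sik1, 1 of 3 for Sik2, 3 of 4 for Sik3 and 3 of 5 for Atf2. The fourth that fell, named after its values were seen, was Crebbp, the acetyltransferase that binds phosphorylated CREB1, with a change of -0.36 (limma, adjusted p = 0.0394). With 1 sample left out, 3 genes of this list were called lower, or 4 without hCG-6h sample 2. Sik2, Sik3 and Atf2 were called in all 6 of these fits, so the call of Crebbp was lost in those with 3. Averaging probe sets moved the change of Sik1 to 1.86 and that of Sik2 to -0.79, and the call of Sik1 was lost without hCG-6h sample 1, 2 or 3 (adjusted p = 0.078, 0.0761 and 0.0596) and with hCG-6h sample 1 as the only hCG-6h sample (adjusted p = 0.201).

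Of 20 known targets of CREB, 9 were higher, 0 were lower by limma and 11 were not called. Among all genes, 10.8% were higher and 10.5% lower. The median change of the targets was 0.70, beside 0.0067 over all genes. This list was chosen with earlier results of these data known, so these shares and medians only describe it. At an unadjusted p under 0.05, 10 were higher and 1 lower (limma). With 1 sample left out, 6 to 10 were called higher. Pde4b and Pde4d, phosphodiesterases that break down cyclic AMP, rose 12.2-fold and 6.23-fold (limma, adjusted p = 0.000482 and 0.000273). Of their probe sets, 3 of 6 for Pde4b (changes from -0.04 to 3.61) and 1 of 2 for Pde4d (0.30 and 2.64) were called higher. Gadd45b rose 4.53-fold (limma, adjusted p = 0.000228) and the phosphatase gene Dusp1 rose 8.00-fold (limma, adjusted p = 0.00843). Dusp1 stood at 11.52, 11.54 and 11.69 at hCG-6h, against 9.40, 9.11 and 7.24 at hCG-0h, with hCG-0h sample 3 lowest, and without that sample its change was 2.33 in place of 3.00 (limma, adjusted p = 0.000574). The same sample was the lowest of the hCG-0h group in 13 of the 20 targets, and without it 10 targets were called higher, with a median change of 0.51. With hCG-6h sample 1 as the only hCG-6h sample the call of Dusp1 was lost (adjusted p = 0.138), and averaging probe sets moved the changes of Pde4b and Pde4d to 1.29 and 1.47.

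**Figure D4:**
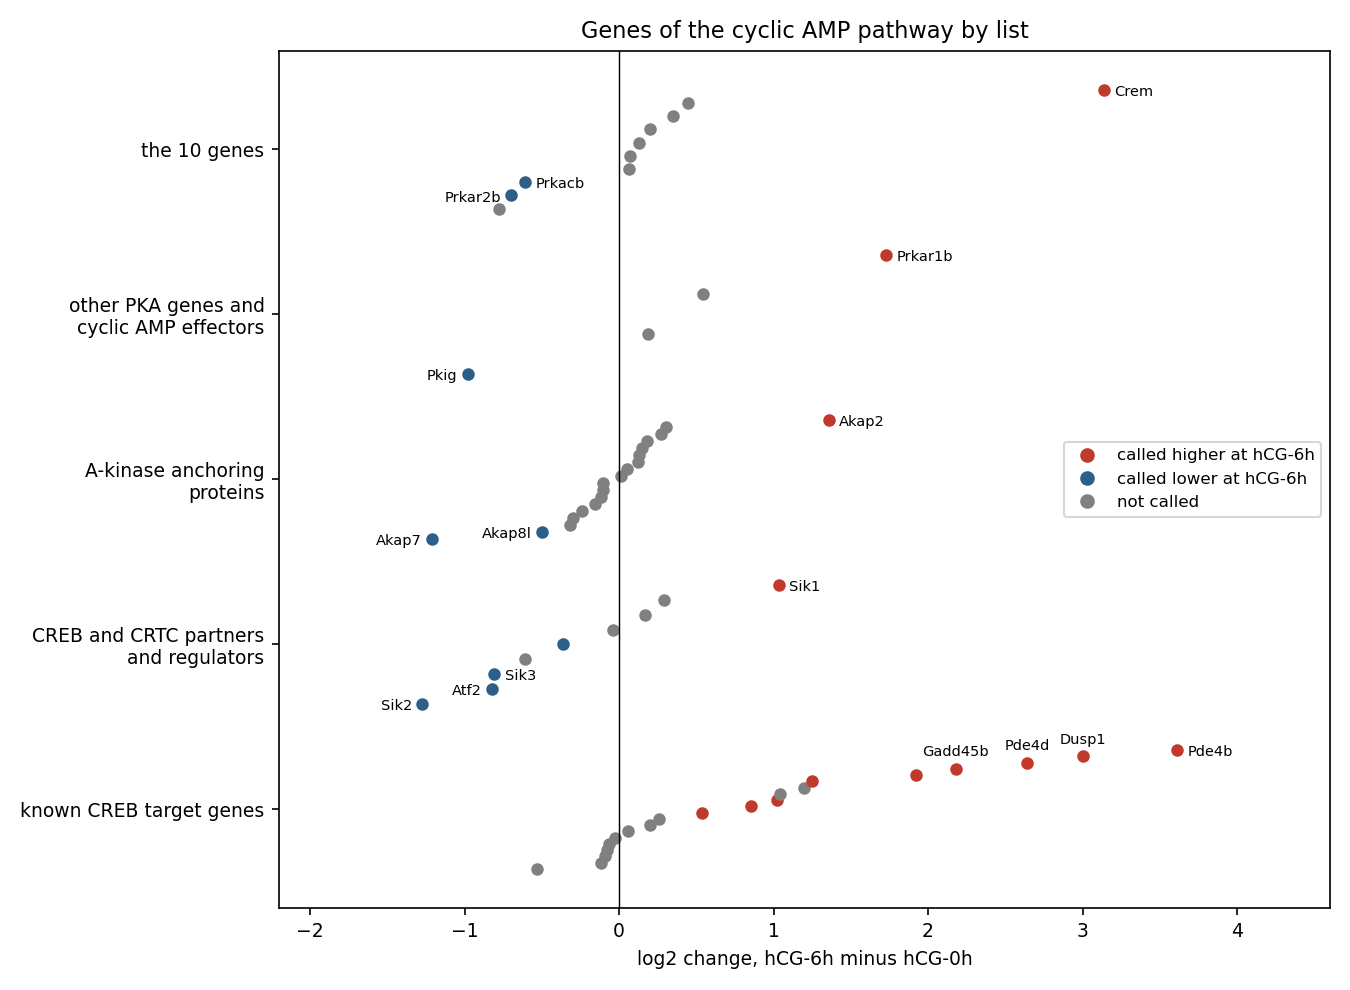
Change of every measured gene of the 5 lists (hCG-6h minus hCG-0h, log2), 1 point per gene, with genes called higher in red, called lower in blue and not called in grey, and the named genes labelled. Calls go both ways in every list but that of the CREB targets, where 9 of 20 were called higher. The lists were chosen with earlier results of these data known.

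Markers of other cells were checked beside these values. Of 11 oocyte markers, 10 lay among the dimmest 1 in 3 genes, among them Zp1, Zp2, Zp3 and Bmp15 between 3.56 and 5.03 in all samples. Ooep, the exception, was higher at hCG-6h (8.54, 8.32 and 8.54, against 6.19, 6.84 and 6.57) and was the only one called. The mean level of all 11, Ooep included, ranged from 5.34 to 5.35 at hCG-6h and from 5.07 to 5.19 at hCG-0h. Their median change was 0.03, with 2 higher and 0 lower at an unadjusted p under 0.05 (limma). These 2 were Ooep and the dim Gdf9, whose change of 0.46 was not called (limma, adjusted p = 0.123). Immune markers averaged 5.66 to 5.84 at hCG-6h and 5.37 to 5.45 at hCG-0h, and endothelial markers 5.52 to 5.80 at hCG-6h and 4.97 to 5.58 at hCG-0h. In either list 0 genes were called by limma, and 2 of each were higher at an unadjusted p under 0.05. The immune marker Cd3e had a change of 0.93 (limma, adjusted p = 0.0651). Without hCG-6h sample 1, or without hCG-6h sample 2, 1 immune marker was called higher. Of the endothelial markers, 1 was called higher without hCG-0h sample 3 and 1 lower without hCG-0h sample 2. The endothelial marker Cdh5 was not dim, with 7.73, 7.92 and 8.63 at hCG-6h, against 6.12, 5.74 and 7.52 at hCG-0h. Its change of 1.63 just missed the threshold (limma, adjusted p = 0.053). Kdr (0.67, with groups that did not overlap) and Tek (0.21) also leaned up, while Vwf (-0.58) and Pecam1 (-0.20) leaned down, all uncalled. Of 7 granulosa and cumulus genes, 0 were called higher and 3 lower by limma (0 higher and 4 lower at an unadjusted p under 0.05), and their mean level ranged from 9.68 to 9.85 at hCG-6h and from 11.16 to 11.23 at hCG-0h. The 3 that fell were Fshr, the receptor of follicle-stimulating hormone (change -3.22, limma, adjusted p = 1.41e-05), the amino acid transporter gene Slc38a3 (-3.70, adjusted p = 2.74e-05) and the nuclear receptor gene Nr5a2 (-1.57, adjusted p = 0.00017). Foxl2, Inha and Inhba stood at 9.47 or above in all samples, and Amh had a change of -1.03 that was not called (adjusted p = 0.127). Theca and stroma markers averaged 6.15 to 6.38 at hCG-6h and 5.98 to 6.49 at hCG-0h, with 0 of 5 called by limma and 1 lower at an unadjusted p under 0.05. Of 2 erythroid markers, Alas2, a heme synthesis enzyme, was lower (change -1.35, limma, adjusted p = 0.00125), and Hba-a1 was not called. Whether cells of other types had a part in the changes of the 10 genes was not tested.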

How the data were processed

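Log2 values of 45101 probe sets in 6 samples were read from the deposited table. Per the submitters' processing notes, the authors used GCOS, Affymetrix Expression Console 1.1 and RMA (background subtraction, quantile normalisation and summary of probes). RMA can compress changes of dim probe sets. No label or header names a build, so the build is not given in the sources at hand. Probe sets were named from the platform's annotation: 34958 had 1 symbol and were used, 932 had several and 9211 were not listed. Where a gene had several, the probe set brightest on average over the 6 arrays stood for it.

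Groups were compared with limma (version 3.58.1, run under R 4.3.3, with lmFit, eBayes and group as the only term, and no filter), two-sided, with Benjamini-Hochberg adjustment over 18194 genes or 34958 probe sets and a threshold of 0.05. The members and lists were chosen with earlier results of these data known. Named genes were the 10 members, up to 4 called genes with the largest changes of each pathway list, and the 3 profiles nearest to the called members with the largest rise and fall. Rapgef4, Atf1, Cyp19a1 and Areg were listed but not analysed here. Alternatives were a block on sample number, trend and robust variance, array weights, renormalisation, median centring, a filter on dim genes, averaged probe sets, hCG-6h sample 1 alone, and each sample left out. Same-numbered samples did not deviate together (correlations of -0.02 to 0.03 across genes).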

Additional observations from a re-analysis of the deposited data

How the results depend on the processing

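Crem was called higher under all 14 alternatives, and Prkar2b was called lower under all but the fit with hCG-6h sample 1 alone. That fit, which has the fewest samples, called 809 genes higher and 767 lower over all genes, in place of 1968 and 1905, and among the 10 genes 1 higher and 0 lower by limma, with 2 lower at an unadjusted p under 0.05, and 2 probe sets lower in place of 4. Array weights gave 2 of the 10 genes called higher, Crem and Pkib. Averaging probe sets gave 1 called lower, Prkar2b. Leaving out 1 sample at a time gave 1 to 2 of the 10 genes called higher, 2 without hCG-0h sample 1, and 1 to 2 lower, 1 without hCG-6h sample 3. The sample number as a replicate block left 1 higher and 2 lower among the 10 genes, with 1670 and 1594 over all genes, and ended the call of Akap8l and, in the fit over probe sets, those of 1425550_a_at (Prkar1a) and 1420611_at (Prkacb), but no other call of a gene named by the rule or of the 31 probe sets. Deviations of same-numbered samples did not correlate, but with so few samples this cannot settle whether they shared a day or animals. The labels do not say.

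The changes that turned sign were uncalled ones near 0, and their cause was not tested. Over the 6 fits that leave out 1 sample, the change ranged from -0.08 to 0.16 for Prkar1a (1452032_at), from -0.0167 to 0.12 for Prkar2a (1452915_at), from -0.01 to 0.29 for Prkaca 1447720_x_at, from -0.0483 to 0.11 for Prkar1a 1447635_at, from -0.0433 to 0.21 for Prkar2a 1432409_at, from -0.41 to 0.025 for Pkia 1420858_at, from -0.14 to 0.0167 for Creb1 1421583_at and from -0.0367 to 0.25 for Crtc2 1424660_s_at. With hCG-6h sample 1 alone, the change was -0.11 for Crtc2 1429373_x_at and -0.0933 for 1424660_s_at, -0.10 for Prkaca 1447720_x_at, -0.0033 for Prkar2a 1432409_at and 0.11 for Pkia 1420858_at. Without the dimmest genes or probe sets, Pkia and Pkib gave no value in the fit over genes, and 24 of the 31 probe sets were left in the fit over probe sets, 1420858_at of Pkia among them. Low signal limits what Pkia and Pkib can show. The values of Pkia by 1420859_at also spread widely within groups (SD 0.63 at hCG-6h and 0.94 at hCG-0h).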
